A study of Mus musculus with 6 samples.

Results

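The 10 genes described here were the feedback inhibitors and output factors of the ERK signalling cascade that are commonly read as transcripts: Spry1, Spry2, Spry4, Spred1, Spred2, Dusp4, Dusp6, Etv1, Etv4 and Etv5. They were chosen by name, with earlier results of these data known, as 10 of the 54446 genes in the count matrices. All 10 were found and passed the filter on low counts. Their transcripts were counted in single cells of mouse glioma cultures, in 2 libraries of GL261 and 4 of GL261-GSCs. GL261 is an established mouse glioma line, here grown in a differentiation medium that holds fetal calf serum. GL261-GSCs were derived from GL261 cells, are labelled glioblastoma stem cells and grew in a defined medium for such cells. The labels give no genetic change, drug or time point for any library, and they do not say which factors the defined medium held. The cultures are 1 line and its derivative, with brain as the labelled tissue. Each group had its own medium, so effects of the medium and of the cell state cannot be told apart.

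In the ERK cascade, a growth factor binds a receptor tyrosine kinase, Ras is loaded with GTP, Raf phosphorylates MEK, and MEK phosphorylates ERK. Active ERK raises the transcription of its own brakes. Sprouty and Spred proteins act between receptor and Raf, and dual-specificity phosphatases such as Dusp6 remove the phosphates that keep ERK active. Etv1, Etv4 and Etv5 are the PEA3 group of ETS transcription factors, which rise when ERK relieves their repression by Capicua. In glioma the cascade is commonly driven by receptor kinases or by loss of the Ras brake neurofibromin.

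Called cells numbered 4264 to 7275 per library, with 33320530 to 79472306 UMIs (counted RNA molecules) in them and a median of 6670 to 15478 UMIs per cell. Levels are given as CPM, the UMIs of a gene summed over the called cells of a library and scaled to a fixed total. Any pair of libraries shared 32 to 59 cell barcodes, where 26.1 to 57.9 were expected by chance. The GL261-GSCs libraries were not equally alike: replicates 1 and 2, and replicates 3 and 4, differed by 70.1 and 44.8 chi-square units per degree of freedom, against 147 to 216 for the other pairs. All pairs of libraries differed by more than sampling noise. The glial lineage factor Olig2 stood at 0.918 and 0.0166 CPM in the GL261 libraries and at 401 to 787 CPM in GL261-GSCs, and Sox2 was present in all 6 libraries. The culture markers listed were Olig2, Sox2, Ptprz1, Nes, Vim and Cd44. By the test given below, 3 of these 6 were called higher in GL261-GSCs and 3 lower, against 15.8% and 14.1% of all genes tested. Their summed level was 15453 and 16679 CPM in GL261 and 5716 to 6380 CPM in GL261-GSCs. The median log2 fold change of the 6 was -0.16. In barcodes that held no cell, Vim was the highest of the 6 in each library. It stood there at 10911 and 10210 CPM in GL261 and at 3547 to 4087 CPM in GL261-GSCs. The sum is thus no measure of the 6 genes as a set. Of the markers of other cell types, Cldn5 and Rbfox3 were at 0 UMIs in all libraries. Ptprc, Aif1 and Tyrobp held at most 9 UMIs each. The lists summed to at most 1.63 CPM for endothelial and 0.199 CPM for lymphoid genes in any library. The myeloid list summed to 12.9 to 13.1 CPM in GL261 and 0.192 to 0.364 CPM in GL261-GSCs, and the neuron list to at most 0.0331 CPM and to 1.15 to 78.2 CPM. Nearly all of these came from the myeloid receptor gene Csf1r, at 12.9 and 12.6 CPM in GL261, and the synaptic gene Syt1, at 1.15, 12.4, 51.6 and 78.2 CPM in GL261-GSCs replicates 1 to 4. Their part in the results below was not tested.

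Of the 10 genes, 6 rose in GL261-GSCs (Etv1, Etv4, Spry4, Spry2, Etv5 and Spred2), 1 fell (Spred1), and 3 did not pass the test (Spry1, Dusp4 and Dusp6). Calls rest on an edgeR quasi-likelihood test of library sums with a Benjamini-Hochberg adjusted p under 0.05 over all 18439 genes tested. By that rule 29.9% of all tested genes passed, with 15.8% higher and 14.1% lower in the GL261-GSCs. The 6 genes that rose are thus set against a background of 15.8%, and the 1 that fell against 14.1%. Since the 10 genes were chosen with earlier results of these data known, these counts are a description only. The median log2 fold change was 0.69 over the 10 genes and 0.04 over all genes tested. In 7 of the 10 genes, the same 7 that were called, the GL261 and GL261-GSCs libraries did not overlap, which held for 56.7% of all genes tested. Of the called genes, 4 changed at least 2-fold (Etv1, Etv4, Spry4 and Spry2), as did 21% of all genes tested. The number called depended on the GL261 arm: without GL261 replicate 1 it was 4, and without replicate 2 it was 2, Etv1 and Spry4. In those fits the lone GL261 library is assumed to vary like the others, and calls over all genes fell from 5514 to 1972 and 1817 (10.3% and 9.3% of those tested).

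**Figure D1:**
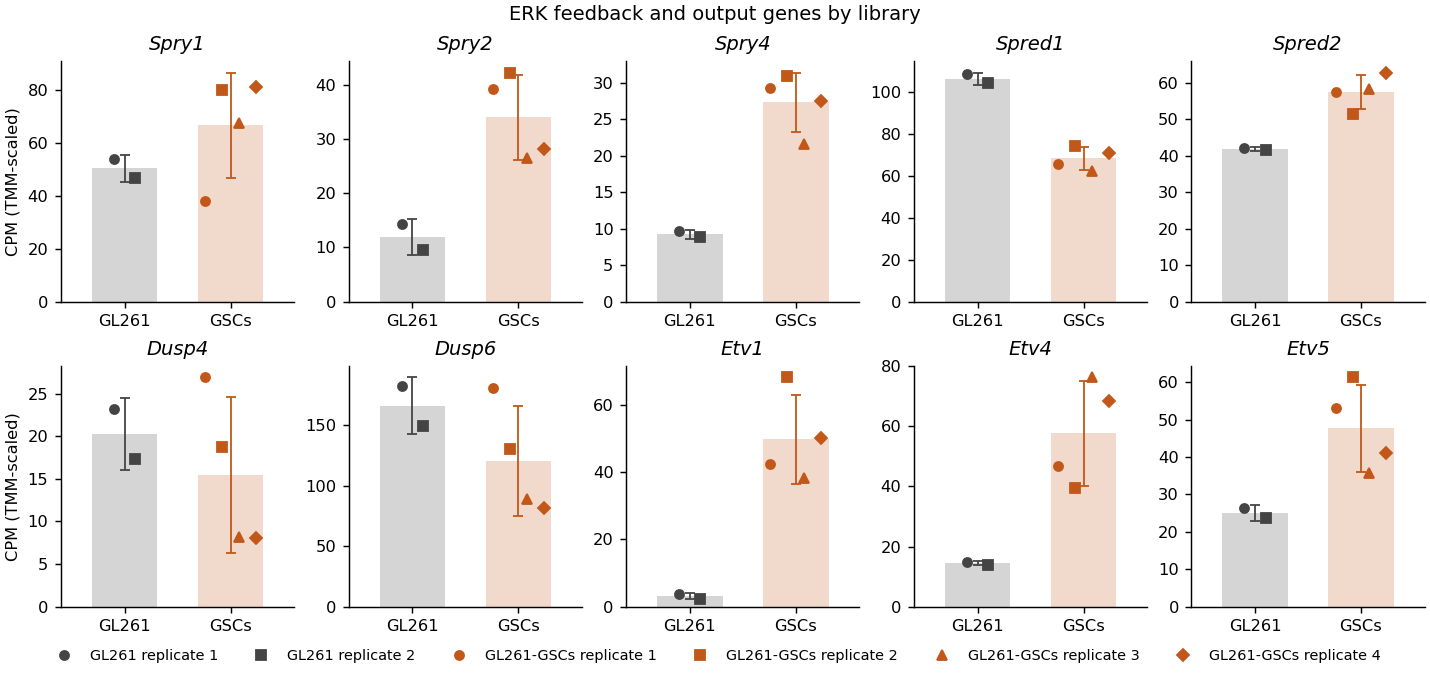
CPM of the 10 genes in each library (y axis, from 0; each panel has its own scale), with points for the libraries, bars for the group means and error bars for the SD (2 GL261 and 4 GL261-GSCs libraries). The points of the groups overlap only for Spry1, Dusp4 and Dusp6, and Etv1 rises from under 4 CPM to between 38.1 and 68.1 CPM.

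The Sprouty genes encode membrane-associated inhibitors that dampen receptor signalling upstream of Raf. Spry2 stood at 14.3 and 9.56 CPM in GL261 replicates 1 and 2 and at 39.1, 42.2, 26.4 and 28.1 CPM in GL261-GSCs replicates 1 to 4. The groups did not overlap, and within GL261-GSCs replicates 1 and 2 lay above 3 and 4. The group means were 11.9 ± 3.37 (SD, n = 2) and 34.0 ± 7.88 (SD, n = 4) CPM, a log2 fold change of 1.51 (SE 0.28, edgeR adjusted p = 0.0086). Without GL261 replicate 2, Spry2 did not pass the test (log2 fold change 1.24, edgeR adjusted p = 0.0914).

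Spry4 was measured at 9.67 and 8.81 CPM in GL261 and at 29.2, 31.0, 21.6 and 27.5 CPM in GL261-GSCs. The groups did not overlap, and the lowest GL261-GSCs library was still above the higher GL261 library. Its log2 fold change was 1.56 (SE 0.19, edgeR adjusted p = 0.0017), and it passed the test with each library left out in turn (edgeR adjusted p 0.0024 to 0.0325). Spry4 lies on chromosome 18 (GRCm38, 38586247 to 38601415, minus strand), where the median log2 fold change over 453 tested genes was -0.48. The part of the chromosome in the Spry4 value was not tested.

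Spry1 did not pass the test, with 53.9 and 46.8 CPM in GL261 and 38.1, 79.7, 67.5 and 80.8 CPM in GL261-GSCs. GL261-GSCs replicate 1 was the lowest of all 6 libraries and the other 3 were the highest, so the groups overlapped through that library alone. The log2 fold change was 0.40 (SE 0.30, edgeR adjusted p = 0.353), and it was 0.61 with an edgeR adjusted p of 0.0229 without that library. Spry1 lies on chromosome 3 (GRCm38, 37639947 to 37644598, plus strand). In GL261-GSCs replicate 1 the genes of chromosome 3 were low as a whole: their median log2 ratio to the mean of the other 3 GL261-GSCs libraries was -0.48 over 830 genes, against -0.02 over 15300 genes of all chromosomes. The same ratio for Spry1 was -1.0, and for chromosome 3 in replicates 2, 3 and 4 it was 0.12, 0.11 and 0.15. The part of the chromosome in the Spry1 value was not tested.

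The Spred genes encode relatives of Sprouty that bring neurofibromin to the membrane, where it turns Ras off. They went in opposite directions. Spred1 fell, from 108 and 104 CPM in GL261 to 65.7, 74.2, 62 and 70.9 CPM in GL261-GSCs. No other of the 10 genes was called lower. Its libraries lay close together within each group, and the groups did not overlap. The log2 fold change was -0.64 (SE 0.12, edgeR adjusted p = 0.0089). Spred2 rose from 42.1 and 41.5 CPM to 57.3, 51.4, 58.2 and 62.7 CPM, again without overlap. Its log2 fold change of 0.46 (SE 0.13, edgeR adjusted p = 0.0342) was the smallest in size among the called genes. Neither Spred call held without GL261 replicate 1 (edgeR adjusted p = 0.0956 for Spred1 and 0.206 for Spred2) or without replicate 2 (0.0831 and 0.235). The Spred2 call was also lost without GL261-GSCs replicate 3 (edgeR adjusted p = 0.0786), without the filter on low counts (0.0833) and with a replicate block (0.0589).

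Dusp6, the cytoplasmic phosphatase that is selective for ERK, did not pass the test. It stood at 183 and 149 CPM in GL261 and at 181, 130, 89.0 and 81.3 CPM in GL261-GSCs. Replicate 1 of GL261-GSCs was as high as the higher GL261 library, and replicates 3 and 4 were the lowest of all. The log2 fold change was -0.46 (SE 0.33, edgeR adjusted p = 0.320). Dusp4 encodes a nuclear phosphatase of ERK and related kinases, and it spread in the same way: 23.3 and 17.3 CPM in GL261, then 26.9, 18.8, 8.13 and 8.02 CPM in GL261-GSCs. The highest GL261-GSCs library held 3.36 times the level of the lowest, the widest spread of the 10 genes within that group. Its log2 fold change was -0.39 (SE 0.52, edgeR adjusted p = 0.600).

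The Dusp values thus turned on which GL261-GSCs libraries were counted. With replicates 3 and 4 alone on that side, a choice made after the data had been seen, both genes were called lower: Dusp6 by a log2 fold change of -0.94 (edgeR adjusted p = 0.0010) and Dusp4 by -1.31 (edgeR adjusted p = 0.00056). In that fit 26.2% of all genes tested were called lower, against 14.1% with all libraries. With replicates 1 and 2 alone neither was called, and the log2 fold change of Dusp4 was 0.18 (edgeR adjusted p = 0.579), of the other sign. Within the group, Spry2, Spry4 and Etv5 were also higher in both of replicates 1 and 2 than in 3 and 4, and Etv4 and Spred2 were lower in both. The share of all genes that split in this way was not counted. Over all genes the libraries fell into the same pairs, at 70.1 and 44.8 chi-square units per degree of freedom against 147 to 216. That measure gives 1 value per pair of libraries, so how common the split is among genes cannot be read from it. Among the receptor genes, Kit stood at 116, 94.3, 58.8 and 46.5 CPM in GL261-GSCs replicates 1 to 4 and Pdgfra at 56.7, 88.4, 168 and 182 CPM. Median UMIs per cell were 15375 and 11890 in replicates 1 and 2 and 10638 and 6670 in replicates 3 and 4. The part of any of these in the Dusp4 and Dusp6 values was not tested.

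Of the 3 PEA3 factors, all rose. Etv1 stood at 3.63 and 2.39 CPM in GL261 and at 42.4, 68.1, 38.1 and 50.2 CPM in GL261-GSCs. Every GL261-GSCs library held more than 10 times the CPM of either GL261 library. The group means were 3.01 ± 0.879 (SD, n = 2) and 49.7 ± 13.3 (SD, n = 4) CPM, a log2 fold change of 4.04 (SE 0.35, edgeR adjusted p = 0.00043). This was the largest change of the 10 genes, and it passed the test with each library left out in turn, with edgeR adjusted p from 0.00061 to 0.0079.

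Etv4 was found at 14.9 and 13.9 CPM in GL261 and at 46.9, 39.4, 76.3 and 68.5 CPM in GL261-GSCs. The groups did not overlap, and here replicates 3 and 4 were the highest. Its log2 fold change was 2.0 (SE 0.31, edgeR adjusted p = 0.0041), and without GL261 replicate 2 the edgeR adjusted p was 0.0529. Etv5 rose from 26.5 and 23.6 CPM to 53.0, 61.3, 35.6 and 41.0 CPM, also without overlap. Its log2 fold change was 0.93 (SE 0.24, edgeR adjusted p = 0.0280), and the call was lost without GL261 replicate 1 (edgeR adjusted p = 0.137) or 2 (0.201). Etv4 and Spred2 lie on chromosome 11, where the median log2 fold change over 1322 tested genes was -0.28, and Etv5 on chromosome 16, where it was 0.19 over 577. Cic, which encodes the repressor Capicua, had a log2 fold change of -0.06 and was not called.

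**Figure D2:**
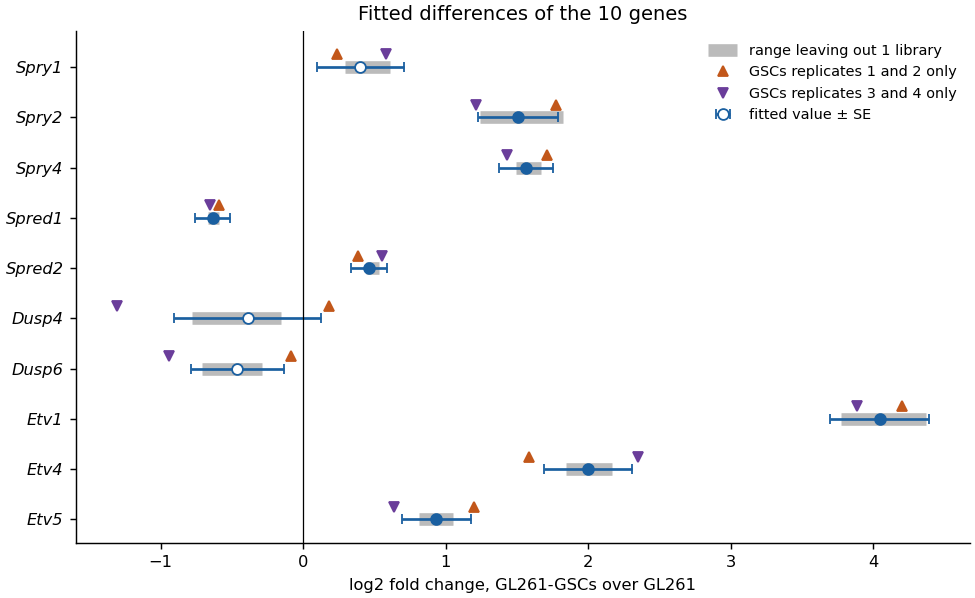
Fitted log2 fold change of each gene (x axis, GL261-GSCs over GL261) with its SE, filled where the edgeR adjusted p was under 0.05. Grey bands give the range over fits that leave out 1 library, and triangles the fits with only GL261-GSCs replicates 1 and 2, or only 3 and 4. Only the triangles of Dusp4 lie on both sides of 0.

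Promoter sequence was looked at because the genes are textbook targets of ERK and several of them rose together. RefSeq promoters (GRCm38.p6, the 250 bases before the start) were given for 7 of the 10 genes, in 9 windows. Promoters of Spry4, Dusp4 and Etv4 were not analysed here. The ETS core CCGGAA, the AP-1 letters TGACTCA and the CRE letters TGACGTCA, each searched on both strands, were in 0 of the 9 windows. Over all promoters of the same length they were in 12.0%, 4.46% and 1.55%. The short ETS letters GGAA (TTCC on the other strand), searched after those results were seen, were in 8 of the 9 windows and in 93.4% of all promoters. No match says only that these letters are not in these windows. Below are the windows of a gene that rose (Spry2, chr14:105896820-105897069, minus strand), one that fell (Spred1, chr2:117120821-117121070, plus strand) and one that was not called (Dusp6, chr10:99262981-99263230, plus strand). They are shown 5′ to 3′ along the gene, with GGAA or TTCC in capitals.
Spry2: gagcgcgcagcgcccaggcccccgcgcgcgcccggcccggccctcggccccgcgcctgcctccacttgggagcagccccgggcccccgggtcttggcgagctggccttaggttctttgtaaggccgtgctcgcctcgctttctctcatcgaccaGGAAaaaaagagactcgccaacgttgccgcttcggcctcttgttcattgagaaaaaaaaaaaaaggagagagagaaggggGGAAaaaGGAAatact
Spred1: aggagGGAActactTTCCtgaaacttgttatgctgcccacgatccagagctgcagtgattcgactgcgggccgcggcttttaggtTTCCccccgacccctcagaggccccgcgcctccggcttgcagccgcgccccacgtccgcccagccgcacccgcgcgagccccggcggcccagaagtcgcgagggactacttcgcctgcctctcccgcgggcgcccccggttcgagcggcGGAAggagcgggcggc
Dusp6: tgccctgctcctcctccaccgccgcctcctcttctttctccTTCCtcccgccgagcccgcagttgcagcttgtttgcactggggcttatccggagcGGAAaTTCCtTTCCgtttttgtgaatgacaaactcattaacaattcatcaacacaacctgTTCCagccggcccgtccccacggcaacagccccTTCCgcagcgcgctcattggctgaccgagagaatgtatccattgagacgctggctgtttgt
The letters occurred 3 times in the Spry2 window, 4 times in that of Spred1 and 6 times in that of Dusp6, where the median over all promoters was 3.

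The transcripts were also counted cell by cell. To compare libraries of unequal depth, each called cell was thinned to 2000 UMIs, and a cell was counted as positive with at least 1 UMI. An Etv1 UMI was found in 0.790% and 0.460% of GL261 cells and in 8.51%, 14.2%, 8.95% and 11.9% of GL261-GSCs cells. The exact binomial (Clopper-Pearson) intervals at 95% were 0.560% to 1.08% in GL261 replicate 1 and 7.69% to 9.39% in GL261-GSCs replicate 1. Free RNA, estimated from barcodes that held no cell, would give 0.0322% and 0.0165% in GL261 and at most 1.22% in GL261-GSCs. Positive cells were more frequent in every GL261-GSCs library. Without thinning, the Etv1 shares were 4.76% and 2.70% against 44.5%, 51.9%, 31.5% and 30.6%. Cultures of 1 line hold no cell type known to lack the genes, so the free RNA estimate stands in for such a background.

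The mean share of positive cells differed in the same direction as the summed level in all 10 genes. After thinning, positive cells of GL261 replicate 1 held 1.01 (Spry4) to 1.29 (Dusp6) UMIs of a gene on average. The share therefore follows the summed level closely and is not a separate result. It cannot tell more positive cells from a higher level per cell. The mean share was 2.66% ± 0.334 (SD, n = 2) in GL261 and 11.1% ± 3.31 (SD, n = 4) in GL261-GSCs for Etv4. For Spry4 it was 1.66% ± 0.0256 against 5.91% ± 0.852, and for Spry2 2.0% ± 0.560 against 6.99% ± 1.08. Spred1 went the other way, with 18.0% ± 0.488 against 14.1% ± 1.27. The shares of the 7 called genes did not overlap between groups, which held for 48.8% of all genes tested. Each of these had an exact permutation p of 0.133 (2-sided, 15 assignments of the labels), and 0.190 after Benjamini-Hochberg adjustment over the 10 genes. The test doubles the smaller tail, and 0.133 is the smallest p it can give here. Without thinning, the shares of 5 of the 10 genes did not overlap, against 42.7% of all genes tested. Spred2 then stood at 41.1% and 36.5% in GL261 and at 37.9% to 54.9% in GL261-GSCs, and Etv5 at 28.5% and 22.7% and at 26.4% to 50.4%, so both overlapped. For Dusp6 the shares were 27.4% and 23.4% for GL261 against 30.3%, 23.4%, 16.7% and 17.7% for GL261-GSCs, which overlapped (exact permutation p = 0.667). Spry1 was found in 8.49% and 7.32% of GL261 cells and in 7.86% of GL261-GSCs replicate 1, against 13.9% to 17.9% in the other 3 (exact permutation p = 0.267). All free RNA estimates for the 10 genes lay below the shares in cells, at 0.0165% to 2.69%.

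**Figure D3:**
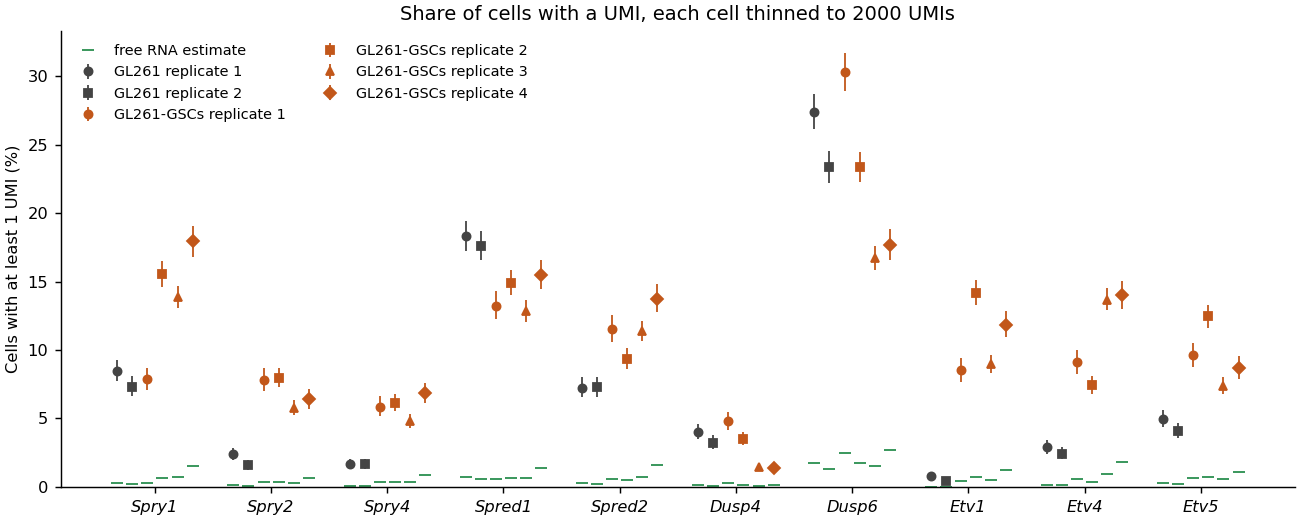
Share of called cells with at least 1 UMI of each gene (y axis, percent) after each cell was thinned to 2000 UMIs, per library, with 95% exact binomial intervals that cover counting error only. Green dashes give the share that free RNA would make, and all points lie above them.

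Over the 10 genes together, 44.6% and 48.9% of thinned GL261 cells held no UMI of any of them. In GL261-GSCs replicates 1 to 4 the share was 32.3%, 31.2%, 37.2% and 30.8%. Cells with 3 or more UMIs of the 10 genes made up 8.15% and 6.08% of GL261 cells and 14.0%, 14.9%, 10.3% and 14.8% of GL261-GSCs cells. The summed level was 479 and 417 CPM in GL261 and 580, 597, 483 and 519 CPM in GL261-GSCs, so the lowest GL261-GSCs library lay just above the higher GL261 library.

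Within a library, the transcripts of the 10 genes were only weakly related from cell to cell. The median Pearson r over the 45 pairs of genes was 0.0462 and 0.0355 in the GL261 libraries and 0.0386, 0.0412, 0.0175 and 0.0180 in those of GL261-GSCs, over 4264 to 7275 cells per library. The cells of a library share its depth and preparation, and most cells hold few UMIs of these genes, so r is given as a description. Values this small are no finding. The pair with the highest mean r was Spry4 with Dusp6 in GL261-GSCs, at 0.229, 0.185, 0.0936 and 0.0720, and the same pair was at 0.0750 and 0.0355 in GL261. In GL261-GSCs, Dusp6 was the gene most like Spry4 of 9157 compared, by mean r, ahead of the immediate early gene Ier3 (0.120). This rank was not typical of the 10 genes. In the same group Dusp6 ranked 4 for Spry2, 182 for Etv5, 342 for Spry1 and 581 for Spred2. It ranked 656 for Etv1, 2083 for Spred1 and 3919 for Etv4. Spry2 with Dusp6 stood at 0.116 in GL261 and 0.102 in GL261-GSCs as means over libraries, and Dusp4 with Dusp6 at 0.107 and 0.0891. Spred1 with Dusp6 stood at 0.136 and 0.0345, and Etv4 with Dusp6 at 0.0952 and 0.0077. These values use the log of UMIs per 10000. With depth and mitochondrial share taken out of them, Spry4 with Dusp6 stood at 0.0427 in GL261 and 0.143 in GL261-GSCs, Spred1 with Dusp6 at 0.106 and 0.0285, and Etv4 with Dusp6 at 0.0882 and 0.0134. On counts thinned to 2000 UMIs, which also drop the log scale, Spry4 with Dusp6 stood at -0.0075 in GL261 and 0.0579 in GL261-GSCs, Spry2 with Dusp6 at 0.0070 and 0.0404, and Dusp4 with Dusp6 at 0.0249 and 0.0222. Spred1 with Dusp6 was then at 0.0343 and 0.0211, and Etv4 with Dusp6 at 0.0092 and 0.0078, so the groups lay closer together for both pairs. None of the differences between groups was tested.

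**Figure D4:**
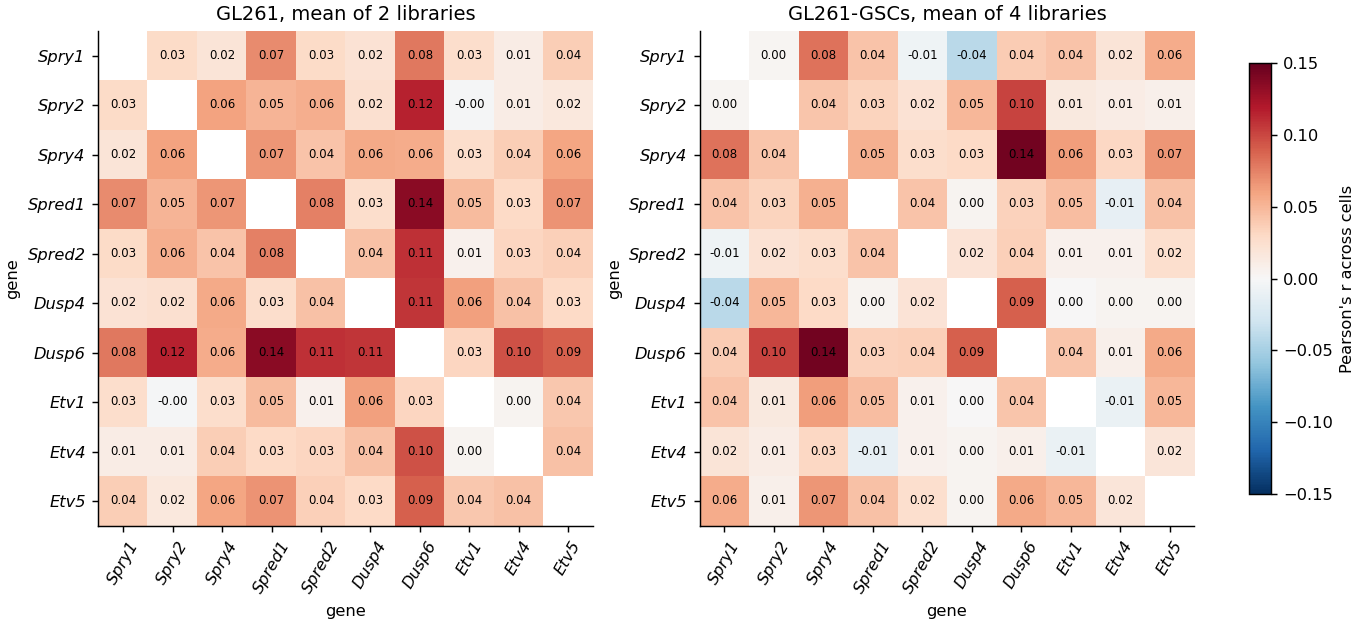
Pearson r between each pair of the 10 genes across cells (colour and printed value, log of UMIs per 10000), as the mean over the 2 GL261 libraries (left) and the 4 GL261-GSCs libraries (right). The highest value is Spry4 with Dusp6 in GL261-GSCs, and the Etv4 row in GL261-GSCs is close to 0 throughout.

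The same relation can be read as levels. Cells thinned to 5000 UMIs were sorted by their Dusp6 UMIs, a split made after the pairs above had been seen. In GL261-GSCs replicate 1, Spry4 stood at 21.9 CPM in 1846 cells with no Dusp6 UMI, 29.2 CPM in 1221 cells with 1 and 51.3 CPM in 971 cells with 2 or more. The ratio between the last and the first was 2.34, 2.0, 1.57 and 1.74 in GL261-GSCs replicates 1 to 4 and 1.13 and 1.22 in GL261. With cells thinned to 2000 UMIs the Spry4 ratio was 1.59 to 3.23 in GL261-GSCs and 1.58 and 0.527 in GL261. Spry4 was thus higher in cells rich in Dusp6 in each GL261-GSCs library at both depths, and in GL261 replicate 2 the direction turned with the depth. For Spry2 the ratio at 5000 UMIs was 1.25 to 1.6 in GL261-GSCs and 1.70 to 1.74 in GL261, and at 2000 UMIs it was 1.38 to 2.31 and 1.02 to 1.19, so the order of the groups turned. For Dusp4 it was 1.69 to 3.09 in GL261-GSCs and 1.29 to 1.40 in GL261 at 5000 UMIs, and 1.21 to 2.74 and 0.633 to 1.65 at 2000. For Etv5 it was 1.24 to 1.39 and 1.31 to 1.46 at 5000 UMIs, and 0.864 to 1.80 and 1.05 to 1.21 at 2000. Etv4 gave 0.889 to 1.04 in GL261-GSCs and 1.42 to 1.55 in GL261 at 5000 UMIs, and 0.987 to 1.5 and 0.930 to 2.18 at 2000, where the groups overlapped. The ratios at 2000 UMIs rest on few molecules: cells with 2 or more Dusp6 UMIs then held 2 to 19 UMIs of any of these 5 genes per GL261 library and 3 to 58 per GL261-GSCs library, against 31 to 142 and 25 to 353 at 5000 UMIs. Gapdh, set beside them as an abundant gene, gave 0.777 to 0.962 over the 6 libraries at 5000 UMIs, and the cycling marker Mki67 gave 0.938 to 1.41. Gapdh was also below 1 in each library at 2000 UMIs, at 0.669 to 0.943, so it is not a neutral reference. Phlda1 gave 1.27 to 1.55 and Ccnd1 1.16 to 1.34 at that depth. Spry1, Spred1, Spred2 and Etv1 gave 1.04 to 1.38, so a rise with Dusp6 was not particular to the genes above. These ratios have no test, since cells of a library are not replicates.

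**Figure D5:**
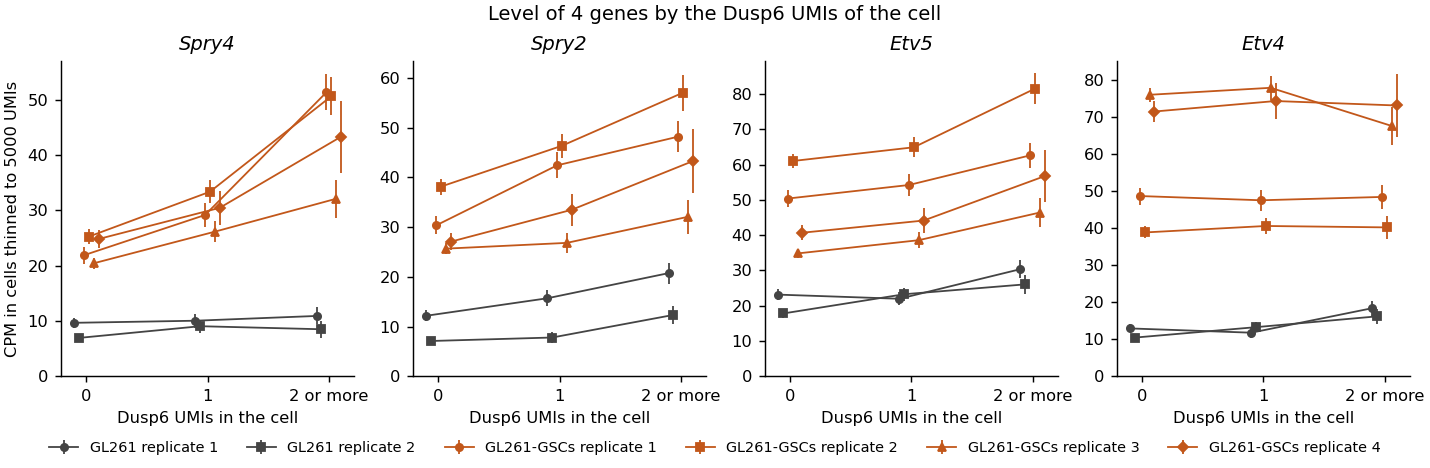
CPM of Spry4, Spry2, Etv5 and Etv4 (y axis, from 0) in cells with 0, 1 or at least 2 Dusp6 UMIs (x axis), each cell thinned to 5000 UMIs, with 1 line per library and bars of 1 counting SD. Spry4 climbs in all 4 GL261-GSCs libraries, from 20.4 to 25.2 CPM up to 32.1 to 51.3 CPM, while the ratio for Etv4 there is 0.889 to 1.04 at this depth.

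The genes whose pattern across cells was most like Dusp6 were shared in part between the cultures. In GL261, Hmga2 (mean r 0.358) and Phlda1 (0.326) were the most alike of 9719 genes compared. In GL261-GSCs they were Phlda1 (0.196), Adamts1 (0.191) and Hmga2 (0.174). Hmga2 encodes a chromatin protein, and Phlda1 is a growth factor response gene. For Spred1 the 3 most alike were Hmga2, Nav3 and Rock2 in GL261 (0.210 to 0.226) and Rev3l, Malat1 and Dst in GL261-GSCs (0.133 to 0.144). Etv1 was most like Tcf4, Sparcl1 and Jmjd1c (0.114 to 0.123) in GL261-GSCs and fell below the detection minimum in GL261. Etv4 was most like Ran, Tuba1b and Lpcat2 (0.0982 to 0.106) in GL261-GSCs. In the same group Spry1 was most like Cd81, Col11a1 and Cntn1 (0.103 to 0.104) and Spry2 most like Syt4, Hmga2 and Adamts1 (0.105 to 0.116). Etv5 was most like Mki67, Cdc20 and Hmga2 in GL261 (0.119 to 0.120) and App, mt-Rnr2 and Cntn1 in GL261-GSCs (0.0971 to 0.105). For comparison, the median r of each of the 10 genes with all other genes compared was 0.0027 to 0.0298 in GL261. In GL261-GSCs it was lower, at 0.0024 to 0.0103, and its part in the differences between groups above was not tested.

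The counts of the lists that follow stand against the 15.8% of all genes tested that were higher in GL261-GSCs and the 14.1% that were lower. These lists, too, were chosen with earlier results of these data known, so their counts are a description only. Of 18 genes of receptors upstream of the cascade, 11 were tested, 5 rose, 4 fell and 2 were not called, with a median log2 fold change of 0.29. Kit, the stem cell factor receptor, was at 0 UMIs in both GL261 libraries and at 46.5 to 116 CPM in GL261-GSCs, at least 3498-fold higher against a floor of 3 UMIs over the GL261 group. Pdgfra, a receptor typical of oligodendrocyte precursors, rose by a log2 fold change of 4.27 (edgeR adjusted p = 0.0031), Fgfr1 by 2.81 and the hepatocyte growth factor receptor Met by 2.70. Fgfr3 fell by 6.22 and Pdgfrb by 5.40 on the log2 scale. Egfr held 1 UMI over the GL261 group and 0 over GL261-GSCs, too few for a comparison.

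Of 20 ligand genes, 11 were tested and 5 were called, all of them lower in GL261-GSCs, against 14.1% of all genes tested. The median log2 fold change of those tested was -1.40. Hbegf, an EGF family ligand, stood at 630 and 533 CPM in GL261 and at 44.1 to 64.0 CPM in GL261-GSCs, a log2 fold change of -3.44 (SE 0.19, edgeR adjusted p = 9.6e-05). Pdgfa, the ligand of Pdgfra, fell by 1.59 on the log2 scale. Igf1, a growth factor gene named after its values had been seen, stood higher in GL261-GSCs, at 9.09 to 54.7 CPM against 3.94 and 2.90 CPM, and was not called (log2 fold change 2.63, edgeR adjusted p = 0.0693). Pdgfc, also named after the fact, was at 0 in both GL261 libraries and at 0 to 0.659 CPM in GL261-GSCs (edgeR adjusted p = 0.109). The number of ligands called was 3 without either GL261 library or without GL261-GSCs replicate 2 or 3.

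Of 24 cascade genes, all were tested, 3 rose, 7 fell and 14 were not called, with a median of -0.25. The adaptor gene Gab1 rose by a log2 fold change of 2.08 and the Ras GTPase activator Rasa1 by 0.72, while the Ras relative Rras2 fell by 4.91 on the log2 scale. Rras2 stood at 153 and 167 CPM in GL261 and at 3.99 to 6.81 CPM in GL261-GSCs, without overlap. The call of Rasa1 was lost without either GL261 library (edgeR adjusted p 0.102 to 0.109). The number of cascade genes called was 2 without either of them.

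Other feedback genes moved in both directions. Of 17 found, 16 were tested, 4 rose, 5 fell and 7 were not called, with a median of -0.13. Dusp16, a phosphatase of JNK and p38, rose by a log2 fold change of 1.5, and Lrig1, a negative regulator of receptor kinases, by 3.24. Dusp7, which like Dusp6 acts on ERK in the cytoplasm, fell by 1.87 on the log2 scale, and Dusp5, a nuclear ERK phosphatase, by 3.12. The Dusp7 values were 40.2 and 43.9 CPM in GL261 and 9.89 to 12.7 CPM in GL261-GSCs, with no overlap. The number called was 5 without either GL261 library.

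Other output genes gave 2 that rose, 7 that fell and 10 that were not called of 19 tested from a list of 20, with a median of -0.27. Myc stood at 177 and 148 CPM in GL261 and at 433 to 505 CPM in GL261-GSCs, a log2 fold change of 1.55 (SE 0.15, edgeR adjusted p = 0.00063). The immediate early gene Fos rose by 1.79, while the AP-1 gene Fosl2 fell by 2.93 on the log2 scale. The ephrin receptor gene Epha2 held 2149 UMIs over the GL261 libraries and only 3 over the GL261-GSCs libraries, a 1427-fold lower rate with a 95% counting interval of 488 to 6926. Egr1 was uneven in both groups, at 94.0 and 32.6 CPM in GL261 and 31.9 to 80.9 CPM in GL261-GSCs, and was not called. Ccnd1 stood at 1098 and 1180 CPM in GL261 and at 1410 to 2378 CPM in GL261-GSCs, without overlap, and was not called either (log2 fold change 0.62, edgeR adjusted p = 0.102). It was called with scaling to library size alone (0.76, edgeR adjusted p = 0.0426), a scaling that moved the median of all genes from 0.04 to 0.18. Phlda1, at 874 and 806 CPM against 681 to 798 CPM, was not called.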

How the data were processed

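The data were 6 unfiltered droplet libraries (10x Genomics 5′ gene expression), 2 of GL261 and 4 of GL261-GSCs. The cultures were dissociated with Accutase and put in a detergent lysis buffer, and cells or nuclei were captured, per the labels' protocols. Deposited were unnormalized UMI counts for each gene in each barcode, made by Cell Ranger 4, per the file headers, on mm10, per the submitters' processing notes. The sources used here do not state whether counting used strand. On the opposite strand, Gm42922 overlaps Spry1, with 95 UMIs against 23088 of Spry1. Groups and replicate numbers came from the titles. Nothing says that replicates were separate cultures, so p-values measure only the spread between these libraries.

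The 3000 largest barcodes of a library set its cell threshold, at 10% of the 99th percentile of their UMIs. Cells also needed 500 genes or more and a mitochondrial share below 10%. No doublet caller was run, and leaving out the 5% of cells with the most UMIs was an alternative. Of the symbols, 94 were repeated, and the one with most UMIs was taken. UMIs were summed per library and tested with edgeR 4.0.16 (glmQLFit, glmQLFTest, TMM, filterByExpr) in R 4.3.3, 2-sided, over 18439 genes. CPM used TMM-scaled library sizes. The SE given is the log2 fold change, without its sign, over the root of the F statistic. Bounds and counting intervals used the same scaled library sizes. Intervals and floors cover counting error only. Exact permutation tests used scipy 1.17.1. Chromosomes and positions came from GENCODE M21 (GRCm38), which held 18427 of the genes tested.

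The free RNA estimate came from barcodes holding 100 or more but fewer than 1000 UMIs. Thinning drew UMIs without replacement, and thinning to 5000 UMIs left out 226 to 1696 cells per library. Chromosome ratios within GL261-GSCs used genes with at least 10 UMIs in each of the 4 libraries.

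The 10 genes and the lists of receptors, ligands, cascade, other feedback and other output genes were chosen with earlier results of these data known. Of the feedback list, Spry3 was not analysed here. The text names from each list the 2 genes with the smallest p in each direction, and Fos, Egr1, Ccnd1, Phlda1, Epha2, Epha4, Fgfr1, Egfr, Pdgfra and Kit. As genes most like a member it names the 3 with the highest mean r, for members with a UMI in at least 20% of cells. Some genes that these rules pick are not reported here. Cic, Ier3, Igf1 and Pdgfc were added after their values had been seen. The tests were also run on simulated counts for 4 against 2 libraries and 18439 genes, at the common dispersion of the data. With 200 genes shifted by a log2 fold change of 2, edgeR recovered 191 with 4 false calls. limma-voom (limma 3.58.1) recovered 186 with 3 false calls, and DESeq2 1.42.0 recovered 187 with 18. The shifted genes held at least 200 UMIs, and the GL261-GSCs libraries were simulated as alike. In the data 29.9% of genes were called and those libraries fell into pairs, so these rates need not hold for the calls above. Alternatives were DESeq2, limma-voom, other scalings, filters and cell calls, a replicate block, and leaving out libraries.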

Additional observations from a re-analysis of the deposited data

Results flagged for a closer look

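Among the 46 groups of 4 libraries in which the highest and lowest values were compared with the rest, 1 had a library far from the others, where chance gives about 1 in 20. It was Epha4 in GL261-GSCs replicate 3, at 0.0125 CPM, which is 1 UMI where the other 3 libraries held 0, a level at which nothing can be read.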

How the results depend on the processing

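Over 17 alternatives for each of the 10 genes, 153 of 170 log2 fold changes kept their direction and their side of the threshold, 11 lost the call, 4 gained it and 2 changed sign. Both sign changes were in Dusp4, to 0.16 with the replicate number as a block (edgeR adjusted p = 0.391) and to 0.18 without GL261-GSCs replicates 3 and 4. Egr1 stood at 0.68 without GL261 replicate 1 and -0.84 without replicate 2. The number of the 10 genes called was 6 or 7 with all libraries, 2 to 8 leaving out 1 library, 10 without GL261-GSCs replicates 1 and 2, and 7 without 3 and 4. Over all genes tested, the fits with all libraries called 17.0% (without the filter, where 6 of the 10 were called) to 36.7% (DESeq2), and the others 9.3% to 33.8%, 54.9% and 39.8%. The number called higher was 2 to 7 leaving out 1 library, where 4.31% to 18.4% of all genes were. These 2 pairs were left out after the data had been seen. For the lists, leaving out 1 library gave 3 to 6 ligands called, 2 to 13 cascade genes and 5 to 12 other feedback genes. The ligands called numbered 8 with the block and 8 without either pair, the cascade genes 18 and the other feedback genes 14 without replicates 1 and 2. The cause was not tested, except that a fit without 1 of 2 GL261 libraries has fewer samples.

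The replicate numbers are shared by 2 pairs of libraries only, and deviations of same-numbered libraries correlated at -0.0071 and 0.0705. The deviations of 2 GL261 libraries mirror each other, so these values cannot decide whether the numbers pair libraries. The main fit took the numbers as names only. The fit with the block has 1 residual degree of freedom, called 6 of the 10 genes and 35.3% of all genes tested, and moved no count but that of the ligands by over 1.5 times. Scaling to library size alone changed the split of all calls from 2920 higher and 2594 lower to 3491 higher and 2034 lower. It reversed none of the 10 genes. The median correlation between the genes was 0.0408 in GL261 and 0.0288 in GL261-GSCs. On counts thinned to 2000 UMIs, without the log scale, it was 0.0086 and 0.0111, and the share of either choice in this was not tested. It was 0.0364 and 0.0288 with depth and mitochondrial share taken out, and 0.0407 and 0.0284 without the 5% of cells with most UMIs. By Spearman correlation it was 0.0592 in GL261, and the GL261-GSCs libraries stood at 0.0366, 0.0382, 0.0261 and 0.0306. Of 90 differences in shares of cells, 74 moved by less than the spread between replicates, 16 by more and 0 changed sign. The alternatives include more UMIs kept per cell and no thinning. Shares of cells rise with the UMIs kept, so differences in percentage points change scale there. These counts do not separate that change of scale from an effect of the other processing choices.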

Other observations

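Other ERK target genes were set beside Dusp6 across cells, and cycling genes beside Spred1. The mean Pearson r of Dusp6 with the immediate early gene Fos was 0.0130 in GL261 and 0.116 in GL261-GSCs, and with Egr1 it was 0.110 and 0.155. Dusp6 with Hbegf stood at 0.294 in GL261 and 0.0226 in GL261-GSCs, and Dusp6 with Ccnd1 at 0.197 and 0.149. Mean levels in GL261 and GL261-GSCs were 581 and 53.4 CPM for Hbegf, and 24.6 and 85.1 CPM for Fos. Those of Egr1 were 63.3 and 52.5 CPM, and those of Ccnd1 1139 and 1751 CPM. Dusp6 with the log of total UMIs stood at 0.131 and -0.0399. Its median r with all other genes was 0.0298 and 0.0085. The part of level and depth in these values was not tested. Spred1 with the cycling genes Mki67 and Top2a stood at 0.178 for both in GL261 and at 0.0849 and 0.0656 in GL261-GSCs. These are descriptions over cells that share a library and its depth, the genes were picked after their values had been seen, and the differences between groups were not tested.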
